A study of Mus musculus with 8 samples.

Results

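The 10 genes described here, Trem2, Tyrobp, Apoe, Lpl, Clec7a, Itgax, Cst7, Gpnmb, Ccl6 and Axl, are microglial genes known to respond to amyloid. They were found by gene name in deposited tables of raw counts and of FPKM (fragments scaled to gene length and library size), and make up 10 of the 54532 genes listed. RNA had been sequenced from the brains of PBS-perfused mice, either wild type (WT) or labelled CAA. The labels give only that abbreviation, read here as cerebral amyloid angiopathy, in which amyloid-beta collects in the walls of brain vessels. Each genotype was either mock-treated or put through chronic restraint stress, which gives 2 libraries each of WT mock and WT stress and 2 each of CAA mock and CAA stress, 4 groups in all. The question posed was how such stress worsens brain injury in CAA. The sources used here do not give the mouse line or transgene behind CAA, the age and sex of the animals, the length of the stress or the part of the brain used. Libraries are named by group and by the number in their title, so that CAA mock 2 is the second CAA mock library. The labels do not say whether each replicate is a separate animal, though the replicates of 2 groups differed in sex (below), and p-values reflect the spread among these 8 libraries.

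Microglia are the resident phagocytes of the brain. Around amyloid they are known to lower genes of the homeostatic state and to raise a set often called disease-associated, a shift that depends on the lipid-sensing receptor TREM2 and its signalling adaptor TYROBP. The raised set holds lipid carriers and lipases (Apoe, Lpl), surface receptors (Clec7a, Itgax, Axl), lysosomal proteins (Cst7, Gpnmb) and a chemokine (Ccl6). Several of these genes are also used by other brain cells: astrocytes are the main source of Apoe, oligodendrocyte precursors and neurons express Lpl, and Axl is found in vascular cells.

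The 250 bases upstream of the start site are shown for the 4 members with the largest fitted difference between genotypes (Itgax, Cst7, Clec7a and Ccl6) and for Trem2, the receptor of the set. They are RefSeq sequences on GRCm38.p6, the assembly that mm10 names, and are written 5′ to 3′ on the strand of the gene. Capitals mark a GGAAGT core, bound by ETS factors such as PU.1, or TGANTCA, a loose form of the AP-1 motif. N is any base there, while the AP-1 consensus has C or G. Each was searched on both strands (a GGAAGT on the opposite strand reads ACTTCC).
Itgax, chr7:128129300-128129549, plus strand: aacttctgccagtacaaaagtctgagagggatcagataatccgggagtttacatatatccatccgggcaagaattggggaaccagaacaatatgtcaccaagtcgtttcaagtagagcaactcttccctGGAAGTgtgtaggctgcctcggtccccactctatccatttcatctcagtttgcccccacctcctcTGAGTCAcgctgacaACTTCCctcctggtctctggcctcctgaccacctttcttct
Cst7, chr2:150570165-150570414, plus strand: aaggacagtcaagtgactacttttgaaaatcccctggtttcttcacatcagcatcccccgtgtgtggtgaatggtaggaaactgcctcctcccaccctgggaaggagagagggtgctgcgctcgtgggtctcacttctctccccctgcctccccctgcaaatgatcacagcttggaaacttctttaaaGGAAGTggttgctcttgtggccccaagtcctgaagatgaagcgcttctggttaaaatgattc
Ccl6, chr11:83593088-83593337, minus strand: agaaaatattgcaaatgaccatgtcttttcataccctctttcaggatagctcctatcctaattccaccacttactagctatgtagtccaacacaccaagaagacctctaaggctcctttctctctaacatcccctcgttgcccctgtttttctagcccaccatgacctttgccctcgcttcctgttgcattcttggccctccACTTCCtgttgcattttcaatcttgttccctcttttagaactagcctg
Clec7a, chr6:129472780-129473029, minus strand: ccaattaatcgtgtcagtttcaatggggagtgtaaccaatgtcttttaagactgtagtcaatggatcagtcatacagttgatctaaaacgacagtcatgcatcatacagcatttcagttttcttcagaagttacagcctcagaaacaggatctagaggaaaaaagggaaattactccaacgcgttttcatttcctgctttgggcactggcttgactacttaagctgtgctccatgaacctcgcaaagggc
Trem2, chr17:48346151-48346400, plus strand: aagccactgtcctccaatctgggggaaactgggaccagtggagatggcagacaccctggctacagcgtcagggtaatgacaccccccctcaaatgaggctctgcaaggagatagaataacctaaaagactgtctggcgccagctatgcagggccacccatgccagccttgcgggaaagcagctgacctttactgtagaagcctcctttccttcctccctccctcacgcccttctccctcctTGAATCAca
Itgax held GGAAGT beginning 121 and 41 bases upstream and an AP-1 motif beginning 56 bases upstream. The single GGAAGT of Cst7 began 62 bases upstream and that of Ccl6 48 bases upstream. Trem2 held a match to the loose form only, TGAATCA, beginning 9 bases upstream, and Clec7a held neither motif in this window. The table had an entry for 8 of the 10 members, all but Tyrobp and Lpl. GGAAGT stood in 3 of these 8 and in 20% of all 27025 promoters of the same length, and TGANTCA in 2 of 8 and in 6.87%. The E-boxes CATGTG and CACGTG, read by MITF and TFE factors, were in 0 of the 8 windows, against 12.2% and 6.05% of all promoters. These are matches of letters, and no binding was measured here. RefSeq places the start of Itgax 3 bases inside the gene as deposited, and those of Axl and Gpnmb 28 bases outside it.

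The libraries held 17275201 to 18894657 gene counts. The 2 replicates of each group were not 1 library deposited again, since a chi-square test of their counts gave 17.9 to 33.7 per degree of freedom. Sex and region markers crossed the groups. WT mock 1 and CAA stress 1 were female by the X-inactivation RNA Xist (4575 and 3340 counts, against 0 to 24 elsewhere) and by 0 counts of 4 Y-linked genes, and the other 6 libraries were male. WT mock 1 and CAA mock 2 were low in striatal markers, with a mean log2 level of -2.25 and -2.06 relative to the mean of all libraries, against 0.06 to 1.09 in the rest. The labels give no dissection or batch, and log2 fold changes of CAA over WT without either pair are printed where they move by over 1.5 times. All 18 homeostatic microglial markers, among them P2ry12, Tmem119 and Cx3cr1, passed the filter on low counts.

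Scaled per length, Apoe stood far above the other members. Its FPKM level was 591 ± 68.2 (SD, n = 4) in WT and 928 ± 234 in CAA. In WT it was followed by Axl (14.7 ± 0.977), Tyrobp (12.7 ± 1.91), Trem2 (3.24 ± 0.485), Lpl (2.37 ± 0.434) and Ccl6 (0.789 ± 0.151). The lowest FPKM levels in WT were those of Gpnmb (0.385 ± 0.101), Cst7 (0.277 ± 0.162), Clec7a (0.103 ± 0.0803) and Itgax (0.0226 ± 0.0225). Neighbours in this order overlapped between libraries for Axl and Tyrobp, for Trem2 and Lpl, and for each step from Gpnmb to Itgax. In CAA the FPKM order was Apoe, Tyrobp (17.6 ± 4.33), Axl (15.8 ± 2.07), Trem2 (3.78 ± 0.262), Lpl (2.14 ± 0.465) and Ccl6 (1.84 ± 1.03). Cst7 came next at 1.80 ± 1.90, ahead of Gpnmb (0.385 ± 0.274), Clec7a (0.380 ± 0.329) and Itgax (0.141 ± 0.105). Tyrobp and Axl, and every step from Lpl to Itgax, overlapped between CAA libraries.

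Against WT, the CAA libraries held more Apoe in each of the 4, and more Cst7, Clec7a, Itgax and Ccl6 in 3 of the 4. Trem2 and Tyrobp were modestly higher on average, while Axl, Lpl and Gpnmb differed by less than their spread. None of the 10 passed edgeR's quasi-likelihood test with Benjamini-Hochberg adjustment over 17182 genes in the comparison averaged over mock and stress, where 0.0116% of all genes did. At an unadjusted p under 0.05, 6 of 10 did, all higher in CAA, beside 8.38% of all genes (4.25% higher). Leaving out WT mock 1, WT stress 2 or CAA stress 2 each brought that count to 3, and leaving out both libraries low in striatal markers brought it to 1. The fold change was positive for 8 of 10 members and for 50.2% of all genes, and the median log2 fold change was 0.55, against 0.0011 over all genes. Clec7a, Itgax and Cst7 reached the count minimum in 3, 2 and 3 CAA libraries and in 0 WT libraries, so they entered the test only through the group where they were high, and neither count is support for the set. In whole-tissue RNA, fewer cells of a type and less RNA per cell cannot be told apart. Below, a level in CPM is the count scaled to library size with edgeR's TMM factors.

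Trem2, the receptor, lies at chr17:48346401-48354147. It measured 15.8 and 18.5 CPM in WT mock 1 and 2, 17.4 and 12.95 in WT stress, 19.2 and 19.8 in CAA mock, and 19.6 and 17.0 in CAA stress. Both CAA mock libraries were above both WT mock libraries, and the stress groups overlapped. The log2 fold change of CAA over WT was 0.23 ± 0.15 (SE, 95% interval -0.10 to 0.55, edgeR adjusted p = 0.681), and 0.12 without the 2 female libraries. The SE of each edgeR fold change here is its absolute value divided by the root of the test's F statistic. The intervals are built on that SE. At low counts both are only approximate: for Clec7a the SE was 0.75 for CAA averaged and 0.41 for stress averaged.

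Tyrobp, at chr7:30413760-30417585, encodes the adaptor through which TREM2 signals. Its level was 7.75 and 10.05 CPM in WT mock, 9.20 and 7.28 in WT stress, 15.1 and 11.998 in CAA mock, and 12.3 and 8.04 in CAA stress. All CAA libraries but CAA stress 2 were above every WT library. CAA exceeded WT by 0.45 ± 0.19 on the log2 scale (interval 0.03 to 0.88; edgeR adjusted p = 0.586), and by 0.21 without the 2 female libraries. Set against the summed level of the 18 homeostatic markers in the same library, Tyrobp was at 12.7 to 15.1 per 1000 in WT and at 15.3 to 19.5 per 1000 in CAA, without overlap. This ratio was chosen after the values were seen, and 0.466% of tested genes were higher without overlap on that scale. Trem2 on it overlapped, at 25.5 to 26.8 per 1000 in WT and 24.7 to 32.4 in CAA. Apoe overlapped too, at 1598 to 2581 per 1000 in WT and 2382 to 3869 in CAA. Itgax, with few counts, was also higher without overlap, at 0.0804 to 0.401 in WT and 0.407 to 2.22 in CAA. The remaining members overlapped.

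Apoe, at chr7:19696109-19699188, encodes the main lipid carrier secreted in the brain and a ligand of TREM2. Its level was 1330 and 1436 CPM in WT mock, 1090 and 1247 in WT stress, 2264 and 1512 in CAA mock, and 2590 and 1655 in CAA stress. Apoe was the only member whose 4 CAA values were each higher than the highest WT value, a pattern found in 2% of genes. The means were 1276 ± 146 CPM in WT and 2005 ± 508 in CAA (SD, n = 4), a log2 fold change of 0.66 ± 0.17 (interval 0.28 to 1.03; edgeR adjusted p = 0.508). DESeq2 called Apoe (adjusted p = 0.0264), as it did 0.364% of genes, and edgeR without a filter on low counts did too (adjusted p = 9.4e-05), with 0.757% of genes. Across all alternatives the log2 value stayed between 0.46, without the female libraries, and 0.80, without CAA stress 2. Of the astrocyte markers, 8 of 10 were higher in CAA, with a median log2 fold change of 0.22. Their summed level was 3556 to 5066 CPM in WT and 3411 to 6529 in CAA. The list's mean relative log2 level was 0.49 in CAA mock 2 and 0.19 in CAA stress 1. It was 0.17 in CAA mock 1 and -0.40 in CAA stress 2. Among CAA libraries the list was thus highest in CAA mock 2, where Apoe was lowest. The filament gene Gfap was at 218 ± 71.8 CPM in WT and 409 ± 187 in CAA (log2 0.86 ± 0.21; edgeR adjusted p = 0.508). The part of astrocytes in the Apoe difference was not tested.

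Lpl, at chr8:68880491-68907448, encodes lipoprotein lipase, which releases fatty acids from triglycerides. Its level was 18.9 and 28.6 CPM in WT mock, 28.6 and 24.1 in WT stress, 26.2 and 23.4 in CAA mock, and 25.4 and 15.4 in CAA stress. The genotypes overlapped under mock and under stress. The log2 fold change was -0.15 ± 0.19 (interval -0.56 to 0.26; edgeR adjusted p = 0.830). It was -0.48 without the female and -0.25 without the low-striatum libraries. Markers of oligodendrocyte precursors, which also express Lpl, were higher in CAA for 8 of 8 genes (median log2 0.28), and edgeR called 0. Their values ran from 0.0048 for Vcan, 0.05 for Pdgfra and 0.10 for Gpr17 to 0.58 for Olig1 and 0.65 for C1ql1.

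Clec7a, at chr6:129461591-129472779, encodes the beta-glucan receptor Dectin-1 and is listed as a polymorphic pseudogene in the deposited annotation. It had 0 and 4 counts in WT mock, 9 and 7 in WT stress, 17 and 39 in CAA mock, and 2 and 14 in CAA stress. As levels these are 0, 0.225, 0.493, 0.386, 0.993, 2.20, 0.109 and 0.750 CPM in that order. CAA mock 1 and 2 and CAA stress 2 were above every WT library, and CAA stress 1 was below 3 of the 4. The log2 fold change was 1.87 ± 0.75 averaged (edgeR adjusted p = 0.586). It was 0.91 without CAA stress 2, 1.04 without the low-striatum libraries and 3.92 without WT mock 2, which leaves a library at 0 as the only WT mock value.

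Itgax, at chr7:128129547-128150657, encodes CD11c, the integrin alpha chain that marks amyloid-associated microglia and dendritic cells. Its counts were 1 and 1 in WT mock, 5 and 1 in WT stress, 7 and 25 in CAA mock, and 5 and 12 in CAA stress. Every CAA library was at or above the highest WT library in counts, and scaled to depth CAA stress 1 (0.273 CPM) was just below WT stress 1 (0.274 CPM). The mean level was 0.110 ± 0.109 CPM in WT and 0.683 ± 0.507 in CAA (log2 2.67 ± 0.77; edgeR adjusted p = 0.527). WT mock held 2 counts in all and CAA mock 32, a ratio per depth of 16.7 with an exact 95% interval of 4.26 to 144 that covers counting error only. Fitted values against so few counts depend on the prior count.

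Cst7, at chr2:150570415-150578944, encodes cystatin F, an inhibitor of lysosomal cysteine proteases. Its counts were 1 and 5 in WT mock, 8 and 6 in WT stress, 20 and 79 in CAA mock, and 0 and 29 in CAA stress. The span within CAA was thus wider than the gap to WT: CAA mock 2 reached 4.45 CPM, CAA stress 2 reached 1.55 and CAA mock 1 reached 1.17, all above the highest WT library (0.438 CPM), while CAA stress 1 held no count (3 counts would be 0.164 CPM). Averaged over mock and stress, the log2 fold change was 2.52 ± 1.01 (edgeR adjusted p = 0.586), and -0.90 without CAA stress 2, where a library at 0 is the only CAA stress value. It was 1.52 without the low-striatum libraries. With no filter on low counts edgeR called it (adjusted p = 0.00238). DESeq2's own filter left Cst7, Clec7a and Itgax without an adjusted p in this comparison.

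Gpnmb, at chr6:49036546-49070929, encodes a membrane glycoprotein of loaded lysosomes. It measured 2.69 and 3.37 CPM in WT mock, 1.81 and 2.26 in WT stress, 1.23 and 2.08 in CAA mock, and 1.64 and 5.20 in CAA stress. CAA mock lay below WT mock, and CAA stress 2 held more than any other library. The averaged log2 fold change was -0.06 ± 0.37 (interval -0.87 to 0.75; edgeR adjusted p = 0.976), 0.17 without the female libraries and -0.35 without the low-striatum libraries. Gpnmb did not follow Cst7 in CAA mock 2, the library where Cst7 was highest.

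Ccl6, at chr11:83587882-83593087, encodes a CC chemokine of rodents. Its counts were 19 and 27 in WT mock, 29 and 29 in WT stress, 53 and 104 in CAA mock, and 25 and 56 in CAA stress. In CPM the WT libraries spanned 1.02 to 1.60, and the CAA libraries were at 3.10, 5.86, 1.36 and 3.0001 in the same order. Again CAA stress 1 lay within the WT range and the other 3 above it. The log2 fold change was 1.13 ± 0.35 (interval 0.37 to 1.90; edgeR adjusted p = 0.531), and 0.74 without the low-striatum libraries. E230016K23Rik, a transcript annotated on the opposite strand, covers all 5206 bases of Ccl6, and the strand setting of the counting is not given. It held 0 to 3 counts.

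Axl, at chr7:25757273-25788705, encodes a receptor tyrosine kinase that binds dying cells through the bridge protein GAS6. Its level was 80.2 and 76.7 CPM in WT mock, 69.0 and 72.2 in WT stress, 84.3 and 87.1 in CAA mock, and 84.6 and 64.6 in CAA stress. CAA mock was above WT mock and the stress groups overlapped. The log2 fold change was 0.10 ± 0.11 (interval -0.15 to 0.35; edgeR adjusted p = 0.810), the narrowest interval of the 10 members, and 0.022 without the female libraries.

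**Figure D1:**
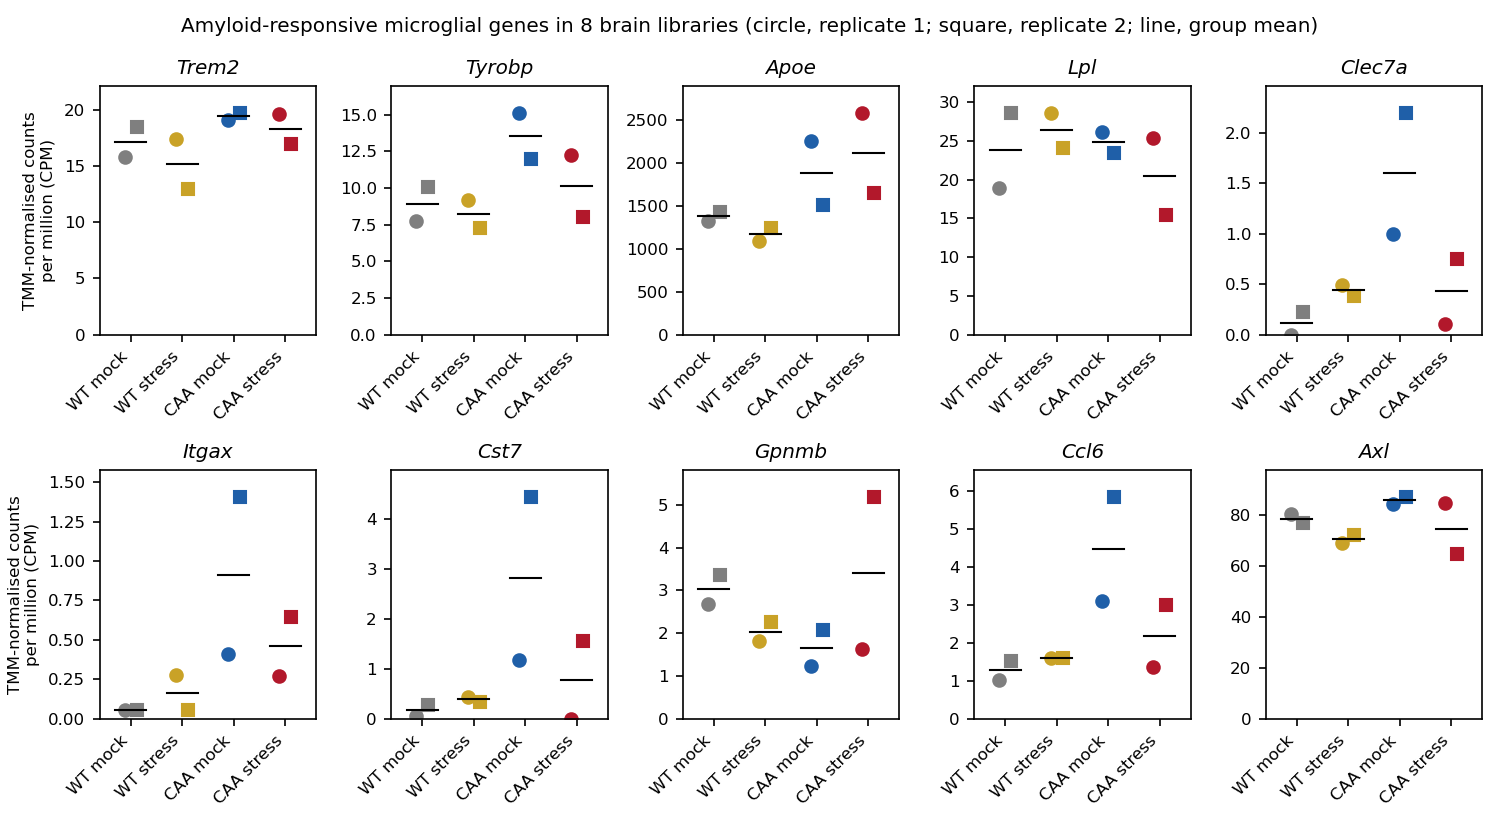
Level of each gene in CPM (linear axes from 0, scaled per gene) in the 4 groups; a circle is replicate 1, a square is replicate 2, and the line is the mean of the 2. Apoe is the only gene whose 4 CAA points all lie above the WT points, and for Cst7 the CAA points run from 0 to 4.45 CPM.

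Under mock treatment alone, 8 of the 10 members were higher in both CAA libraries than in both WT libraries, beside 16.2% of all genes, 1 (Gpnmb) was lower (16.7% of genes), and Lpl overlapped. The fold change was positive for 9 of 10 (50.7% of genes). The largest log2 fold changes were those of Cst7 (4.03 ± 1.47), Itgax (3.89 ± 1.14), Clec7a (3.77 ± 1.11) and Ccl6 (1.82 ± 0.50), followed by Tyrobp (0.61 ± 0.27), Apoe (0.45 ± 0.24), Trem2 (0.18 ± 0.21), Axl (0.13 ± 0.16) and Lpl (0.06 ± 0.26). Gpnmb was at -0.87 ± 0.53. edgeR called 0 of 10 (0.0116% of all genes; adjusted p = 0.998 for each), 5 of 10 were at an unadjusted p under 0.05 (4% of genes), and DESeq2 called 0 (0.13% of genes) with 4 under 0.05. The 5 became 3 without WT mock 1 and 1 without the low-striatum libraries, which leaves 1 library per genotype. Without those libraries the log2 fold change was 2.03 for Cst7, 2.11 for Clec7a, 1.03 for Ccl6, -1.45 for Gpnmb, -0.13 for Lpl and 0.049 for Trem2, and without the female libraries it was 0.072 for Trem2 and -0.21 for Lpl. edgeR without a filter called Cst7, Clec7a and Ccl6 (0.278% of genes). As above, Clec7a, Itgax and Cst7 reached the count minimum in 0 WT libraries. The counts of members under mock, and those under stress below, are therefore no support for the set.

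Under stress, Apoe alone was higher without overlap (19.5% of genes were), with CAA over WT at 0.86 ± 0.24 on the log2 scale (edgeR adjusted p = 0.579). The low-count members Itgax (1.44 ± 1.01), Cst7 (1.01 ± 1.37), Ccl6 (0.45 ± 0.49) and Clec7a (-0.03 ± 0.997) were near their SE or below it. Gpnmb was at 0.75 ± 0.52, Lpl at -0.37 ± 0.26, Tyrobp at 0.30 ± 0.27, Trem2 at 0.27 ± 0.21 and Axl at 0.08 ± 0.16. edgeR called 0 of 10 (0.0116% of genes) with 1 at an unadjusted p under 0.05 (8.22% of genes), as did DESeq2 (0.0817% of genes called). edgeR without a filter called Apoe (adjusted p = 0.000939; 0.408% of genes). Positive values were counted for 8 of 10 members (50.7% of genes), and for 5 of 10 without CAA stress 2. The median log2 fold change of the members was 0.38. It was 0.65 without CAA stress 1 and 0.097 without CAA stress 2, each of which leaves 1 CAA stress library. Without the female libraries, which leaves CAA stress 2 as the only CAA stress library, the log2 fold change was 0.52 for Apoe, 2.01 for Cst7, 0.78 for Clec7a, 0.92 for Ccl6 and 1.36 for Gpnmb. It was then -0.76 for Lpl, -0.021 for Tyrobp, 0.18 for Trem2 and -0.12 for Axl.

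**Figure D2:**
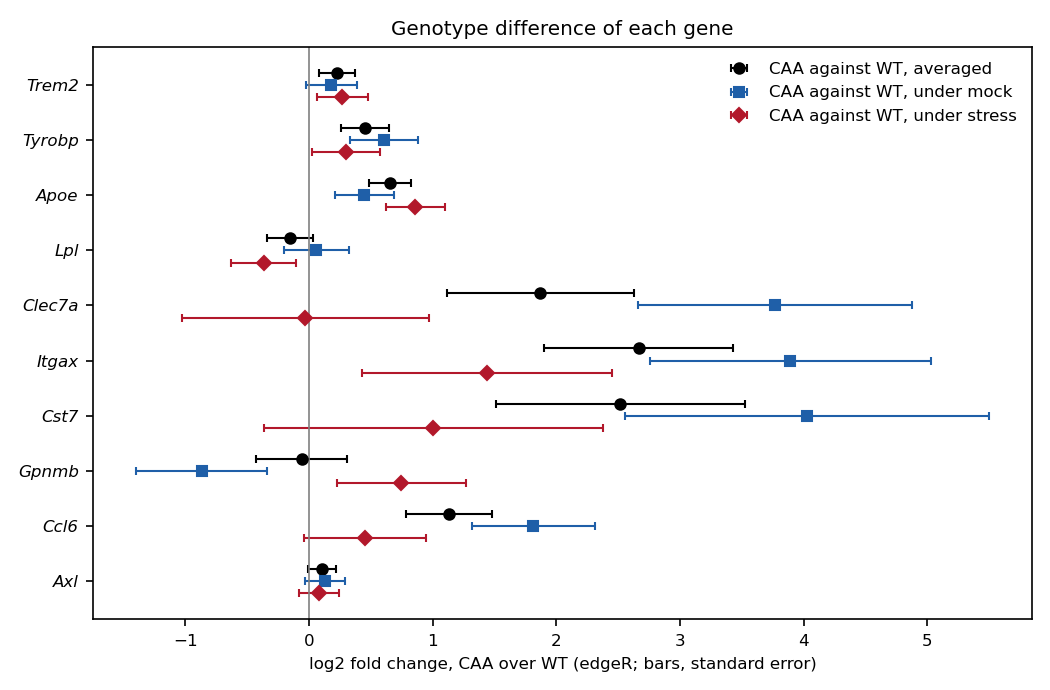
log2 fold change of CAA over WT from edgeR for each gene, averaged (circles), under mock (squares) and under stress (diamonds), with bars of 1 SE. Clec7a, Itgax and Cst7 carry the widest bars and their mock values near 4 lie right of their stress values.

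The members did not share a single order among the 4 CAA libraries. Cst7 and Itgax ran from CAA mock 2 through CAA stress 2 and CAA mock 1 down to CAA stress 1. Clec7a and Ccl6 began and ended with the same libraries, with CAA mock 1 before CAA stress 2. Apoe ran in exactly the reverse order of Cst7 and Itgax, from CAA stress 1 down to CAA mock 2. Over the 8 libraries, as a description with no test, the Pearson correlation of log2 levels was 0.94 for Clec7a with Cst7, 0.94 for Clec7a with Ccl6, 0.95 for Cst7 with Ccl6, 0.89 for Itgax with Ccl6 and 0.82 for Trem2 with Tyrobp. It was -0.09 for Apoe with Cst7 and -0.66 for Gpnmb with Tyrobp. The libraries share their depth and groups, and the low counts of Clec7a, Itgax and Cst7 carry counting noise.

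CAA stress 1, the library with 0 counts of Cst7 and 2 of Clec7a, held 54.7 CPM of Wdfy1, where CAA libraries spanned 47.3 to 65.7 and WT libraries 9.87 to 12.5. Ngef was at 67.7 CPM there, against 40.4 to 70.9 in CAA and 257 to 320 in WT. Both genes were chosen after their values were seen, because they separate the libraries by label, so they are no check of the label. CAA stress 1 is female, as is WT mock 1, the WT library lowest in Clec7a, Cst7 and Ccl6. With 1 female library in each genotype and each from another treatment, the part of sex was not tested beyond 2 kinds of fit. These were the fits without the female libraries and the fit with a term for sex.

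Markers of brain regions moved with some of these orders. The choroid plexus list stood at a mean relative log2 level of 1.68 in CAA stress 1, 0.51 in CAA mock 1, -0.77 in CAA stress 2 and -0.97 in CAA mock 2, the order of Apoe. The hypothalamic list followed the same order in CAA (1.85, 1.74, 0.75 and -1.56). In WT the choroid plexus list was highest in WT stress 2 (2.15), whose Apoe level was the third highest of the 4 WT libraries. CAA mock 2, highest for Cst7, Clec7a, Itgax and Ccl6, was the CAA library low in striatal markers, while WT mock 1, also low in them, was lowest for Cst7, Clec7a and Ccl6. The part of dissection in the members' levels was not tested.

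**Figure D3:**
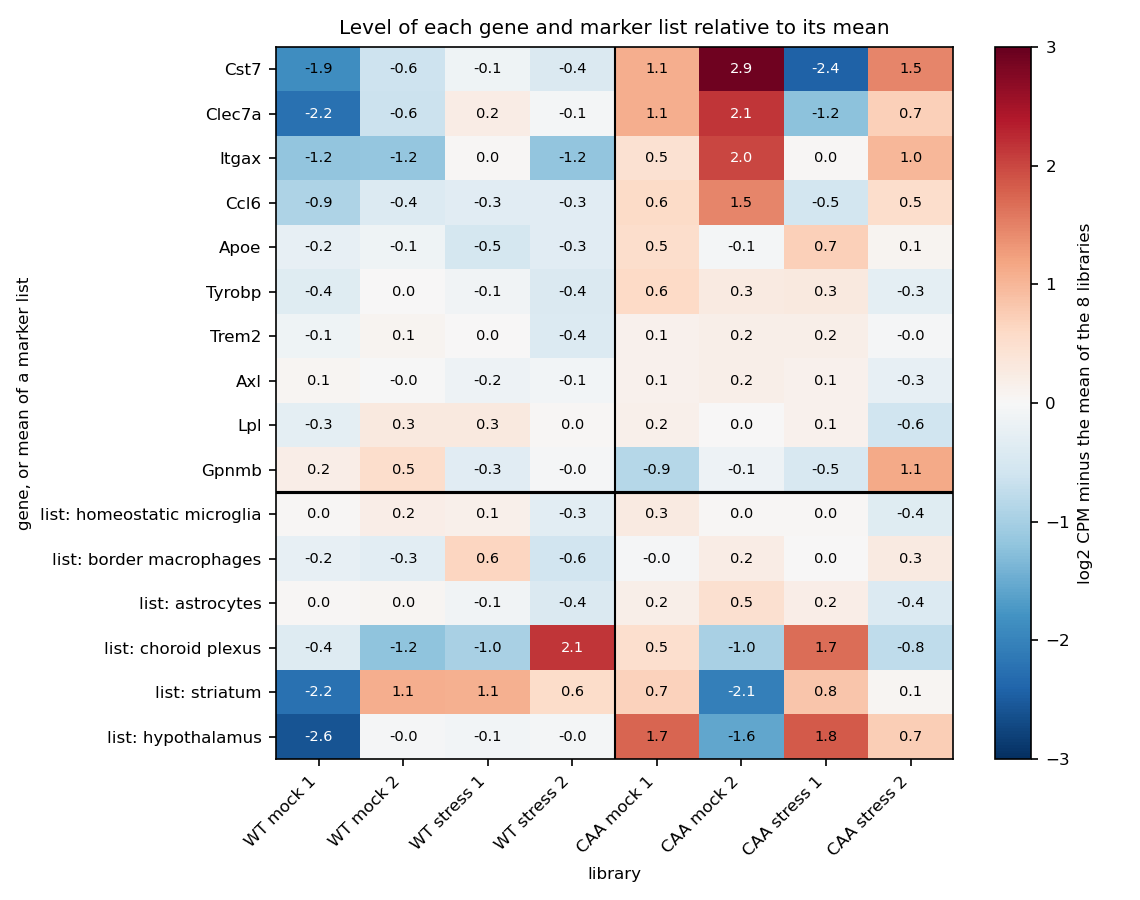
log2 CPM of each member, and mean of 6 marker lists below the thick line, relative to the mean of the 8 libraries (colour and printed value); columns are libraries, and the vertical line divides WT from CAA. Cst7, Clec7a, Itgax and Ccl6 are highest in CAA mock 2 and the homeostatic microglial list varies by at most 0.4 in either direction.

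In the other microglial genes the genotype differences were small. Of the 18 homeostatic markers, 9 were higher and 9 lower in CAA and 0 passed the test, with a median log2 fold change of 0.02. Their summed level was 483 to 698 CPM in WT and 524 to 775 in CAA. The complement subunit genes C1qc (0.39 ± 0.16; edgeR adjusted p = 0.586) and C1qa (0.33 ± 0.15; adjusted p = 0.591) had the smallest p-values of that list, and 2 of 18 were at an unadjusted p under 0.05. Of 30 further amyloid-responsive genes, 26 were tested, 0 passed, 19 were higher and 7 lower, and 3 were at an unadjusted p under 0.05, with a median of 0.17. The metalloproteinase inhibitor Timp2 was at 308 ± 40.6 CPM in WT and 406 ± 68.8 in CAA (log2 0.40 ± 0.14; edgeR adjusted p = 0.546). The lysosomal protease gene Ctsd was at 253 ± 8.19 and 310 ± 22.2 CPM (0.29 ± 0.10; adjusted p = 0.546).

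Genes that act with the members as ligands, co-receptors, signalling enzymes or regulators numbered 32, of which 28 were tested. Here 0 passed, 18 were higher and 10 lower, and 3 were at an unadjusted p under 0.05, with a median log2 fold change of 0.05. Mertk, a receptor of the family of Axl, was at 49.9 ± 4.76 CPM in WT and 38.5 ± 2.24 in CAA (log2 -0.37 ± 0.12; edgeR adjusted p = 0.532). Among partners below the filter, the LPL activator Apoc2 had 0 counts in all libraries, the LPL anchor Gpihbp1 0 to 2, and Ccr1, a chemokine receptor, 0 to 10.

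Markers of other cells that could carry member transcripts were measured beside them. Of the 10 border macrophage markers 9 were tested, 7 were higher in CAA, and edgeR called 0 with 2 at an unadjusted p under 0.05 (median 0.21), and their summed level was 20.3 to 28.6 CPM in WT and 24.8 to 40.8 in CAA. The scavenger receptor genes Stab1 (log2 0.50 ± 0.15; edgeR adjusted p = 0.531) and Mrc1 (0.69 ± 0.31; adjusted p = 0.593) led that list. Of 12 monocyte and neutrophil markers only S100a8 and S100a9 were tested, and the sum of the list was 1.52 to 3.01 CPM in WT and 0.642 to 7.32 in CAA. That sum was highest in CAA mock 2 (7.32 CPM), then in CAA stress 1 (5.12), and lowest in CAA mock 1 (0.642). Per library there were 0 to 9 counts of Ccr2, 0 to 6 of Ly6c2, 0 to 6 of Mpo and 0 to 3 of Elane. Chil3 held 1 to 22 counts, S100a8 2 to 32 and S100a9 1 to 36. Chil3 reached 1.24 CPM in CAA mock 2 and at most 0.274 CPM in any other library. Fibroblast markers were higher in CAA in 9 of 10, with a median log2 fold change of 0.60, above that of the members, and 4 at an unadjusted p under 0.05. Their summed level was 74.2 to 99.2 CPM in WT and 76.1 to 155 in CAA. Myelin markers were higher in 10 of 10 (median 0.43), hypothalamic markers in 9 of 10 (median 0.94) and hippocampal markers in 7 of 8 (median 0.36). Olfactory bulb markers were higher in 1 of 8 (median -1.50) and striatal markers in 1 of 10 (median -0.36). Endothelial markers were lower in 10 of 10 (median -0.20), with 0 called by edgeR and 1 at an unadjusted p under 0.05. The part of these cells and regions in the members' differences was not tested.

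**Figure D4:**
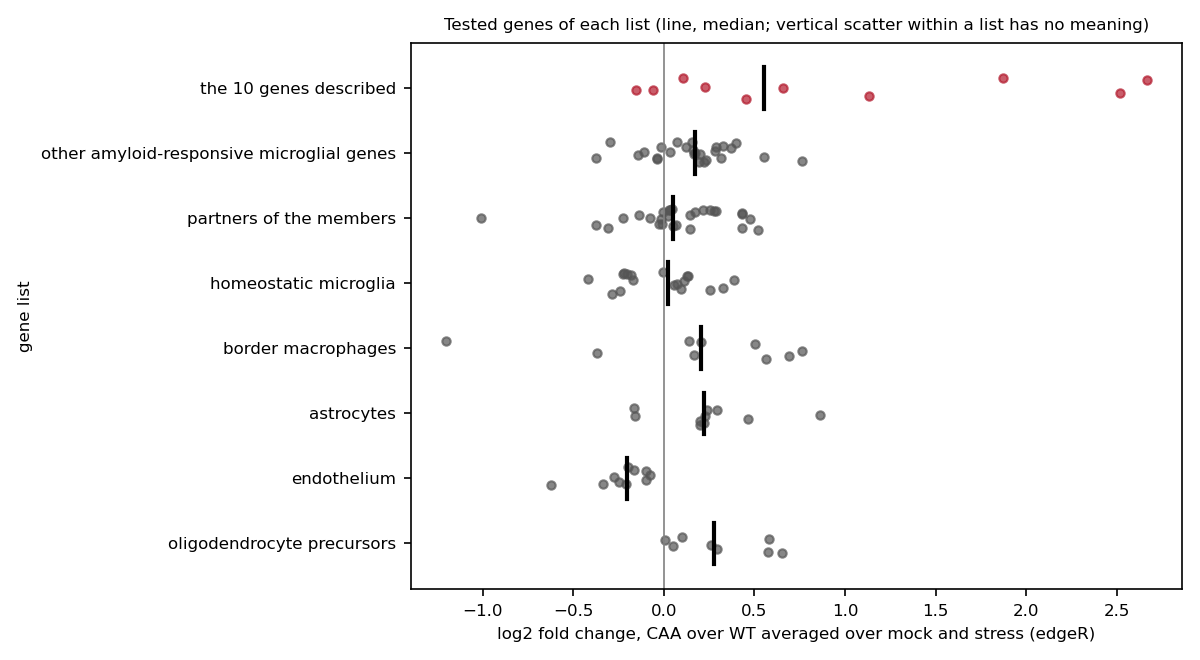
log2 fold change of CAA over WT, averaged over treatments (edgeR), for each tested gene of 8 lists; 1 point is 1 gene and the black line is the median. The medians are 0.55 for the 10 members, 0.17 for the other amyloid-responsive genes and 0.02 for homeostatic microglia.

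Restraint stress gave no call among the members in either genotype. In WT, 0 of 10 passed edgeR's test, as 0% of all genes did, and 0 of 10 were at an unadjusted p under 0.05 (1.59% of genes). Clec7a, Cst7 and Ccl6 were higher without overlap in WT stress (13.2% of genes) and Apoe, Gpnmb and Axl lower (13.5%). Clec7a held 0 to 9 counts in WT libraries and Cst7 1 to 8. Both reached the count minimum in 0 WT libraries and entered this comparison only through CAA libraries, so these counts are no support for the set. Fitted on the WT groups alone, 7 of the 10 members were tested. The log2 fold changes were 1.93 ± 1.19 for Clec7a, 0.33 ± 0.51 for Ccl6 and -0.57 ± 0.52 for Gpnmb (edgeR adjusted p = 0.9999 for each). DESeq2 called 0 of 10 (0% of genes) and had 0 at an unadjusted p under 0.05.

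In CAA, stress went with lower levels of 8 of the 10 members, with a median log2 fold change of -0.35 (51.4% of all genes were higher), but 0 passed edgeR's test (0% of all genes) and 0 were at an unadjusted p under 0.05 (6.94%). The median was -0.53 without CAA stress 1 and -0.083 without CAA stress 2, each of which leaves 1 CAA stress library. The 0 became 2 in edgeR with the replicate number as a block, with 0 of them higher. It also became 2, with 0 higher, in limma on log2(FPKM + 1) and on log2(FPKM + 0.1). In edgeR on the CAA groups alone it became 1, which was lower. Clec7a (-1.87 ± 0.93) and Ccl6 (-1.03 ± 0.48) were lower without overlap in CAA stress, as were 19% of all genes, and Gpnmb was at 1.04 ± 0.53 (edgeR adjusted p = 0.696 for each). The difference between the stress effects in CAA and in WT was -3.80 ± 1.51 for Clec7a (edgeR adjusted p = 0.995), -1.36 ± 0.70 for Ccl6 and 1.61 ± 0.74 for Gpnmb. Clec7a was the only member at an unadjusted p under 0.05 in that interaction, beside 3.46% of genes, and 0 passed (0% of genes). The median of the members for the interaction was -0.37. As each library was left out, which leaves 1 library in a group, it ran from -0.72 without CAA stress 1 to -0.081 without CAA stress 2. With the replicate number as a block, 4 members were at an unadjusted edgeR p under 0.05, 1 of them higher. DESeq2 called 0 members in both comparisons (0.0802% and 0.0034% of genes), with 0 and 1 at an unadjusted p under 0.05. The comparisons of stress in CAA and of CAA under mock share the CAA mock libraries, which were the highest for Clec7a and Ccl6. As above, Clec7a, Itgax and Cst7 reached the count minimum in 0 WT libraries and were highest in CAA mock 2. The counts of members for stress in CAA and for the interaction are therefore no support for the set. Averaged over genotypes, 0 of 10 passed (0% of genes) and 0 were at an unadjusted p under 0.05 (3.82%), and DESeq2 gave the same counts (0.0102% of genes called).

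The genes whose level over the 8 libraries was most like the mean of the 10 members were Rab7b (Pearson r = 0.97), Snhg17 (0.93), Slc44a5 (0.91), AA474408 (0.90) and Zfp119b (0.90), out of 14905 other tested genes of at least 1 CPM. Ccpg1os (0.89), 4933431K14Rik, Cd68, Ndufa4l2 and Myc (0.88 each) came next. Cd68, a lysosomal membrane protein gene of phagocytes, was the only one of the 10 on another of the amyloid-responsive lists. Its level was 5.92 and 6.62 CPM in WT mock, 6.57 and 5.84 in WT stress, 7.30 and 7.999 in CAA mock, and 6.76 and 6.70 in CAA stress, so that every CAA library was above every WT library. Cd68 was selected for its likeness to a profile that is higher in CAA, so this is a description. Rab7b, a small GTPase gene of late endosomes, was at 0.861 to 1.15 CPM in WT and at 1.69, 2.20, 0.981 and 1.98 in CAA mock 1, CAA mock 2, CAA stress 1 and CAA stress 2. Like Cst7, Clec7a, Itgax and Ccl6, Rab7b was lowest in CAA stress 1 among the CAA libraries. It too was selected for its likeness to the mean of the members, so this is a description. The mean is led by the members that vary most.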

How the data were processed

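Raw counts of reads per gene and a matching table of FPKM values were deposited for 54532 genes in 8 brain libraries from total RNA. The authors made the counts with HISAT2 2.0.5 and featureCounts 1.5.0-p3 on mm10, per the submitters' processing notes. FPKM is the authors' own normalisation by gene length and library size, per the file headers. The sources used here do not give the strandedness, the annotation release or the parameters. Gene names were read from the FPKM table by gene identifier, since some in the count table were turned into dates.

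The main test on the counts was edgeR (version 4.0.16, R version 4.3.3). Low genes were removed with filterByExpr (minimum count 10, minimum total 15; 17182 genes left), and the rest were scaled by TMM and fitted as 4 group means with a robust quasi-likelihood model over all 8 libraries (4 residual degrees of freedom). The 7 comparisons were CAA against WT averaged, under mock and under stress, stress in WT, in CAA and averaged, and the interaction. All p-values are two-sided, with Benjamini-Hochberg adjustment over the genes tested and a threshold of 0.05. The fit was also run on simulated counts, and the outcome is not reported here. Alternatives used DESeq2 1.42.0 or its size factors, no filter, a replicate block, only the compared groups, limma 3.58.1 on log2(FPKM + 1) or log2(FPKM + 0.1), each library left out, a term for sex, and omission of the female or the low-striatum libraries.

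The members and marker lists were chosen with earlier results of these data known. The rule for naming genes gives all members, the 2 genes of smallest p of each list named, and the 10 genes most correlated with the mean of the members. Some genes that the rule names are not reported here. Promoters were matched by symbol and nearest start site.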

Additional observations from a re-analysis of the deposited data

How the results depend on the processing

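Of 684 values of 39 results on single members under alternative settings, 27 turned sign and 7 passed the threshold that the reported value missed. The other 650 kept their direction and did not pass the threshold. DESeq2 values without an adjusted p, such as that of Clec7a for CAA averaged, were counted among these by direction alone. Of the 39 results, 27 never turned. No value that had passed was lost, since none had passed. Without a filter on low counts edgeR called 2 members for CAA averaged, 3 under mock and 1 under stress, and over all genes 223, 82 and 120, against 2 in each of the reported fits; for stress it called 11 genes in WT, 112 in CAA, 49 averaged and 17 for the interaction, against 0. DESeq2 called 1 member for CAA averaged, and 49, 19 and 11 genes for CAA averaged, under mock and under stress, 14 for stress in CAA, 3 for stress averaged and 1 for the interaction. The cause was not tested.

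The median log2 fold change of the members for CAA averaged was 0.24 with limma on log2(FPKM + 1), a scale that compresses low genes, and 0.33 without the female libraries. Under mock it was 0.32 with that limma fit and 0.32 to 0.74 as each library was left out. Under stress it was 0.19 with limma, 0.75 with a term for sex, 0.65 without the female libraries and 0.097 to 0.65 as each was left out, with 5 to 9 members higher.

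For CAA averaged, leaving out 1 library gave -0.59 to 0.25 for Gpnmb (0.17 without the female libraries), -0.35 to 0.011 for Lpl and -0.90 to 3.27 for Cst7. Under mock, Lpl was at -0.21 without the female and -0.13 without the low-striatum libraries, and at -0.21 to 0.39 as each was left out. Under stress, the term for sex gave 0.87 for Clec7a and -0.045 for Axl, and the fit without the female libraries gave 0.78 for Clec7a, -0.021 for Tyrobp and -0.12 for Axl. Leaving out 1 library under stress gave -0.021 to 0.57 for Tyrobp, -1.95 to 0.78 for Clec7a, -5.82 to 2.01 for Cst7, -0.32 to 1.36 for Gpnmb, -0.23 to 0.92 for Ccl6 and -0.12 to 0.25 for Axl, and limma on log2(FPKM + 0.1) gave -0.24 for Cst7. The term for sex gave -0.074 for Ccl6 for stress in WT, and Gpnmb for stress in CAA was at -0.021 to 1.66. Values fitted where the remaining library of a group is at 0, such as -5.82 for Cst7, depend on the prior count and are no bound. A lone library is assumed to vary like the others.

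Replicate numbers do not pair the libraries: same-numbered libraries had correlated deviations of -0.27 to 0.14. With the replicate number as a block edgeR called 0 members in all 7 comparisons and 2 genes for CAA averaged, as without it. Clec7a, Itgax and Cst7 held 0 to 79 counts per library, so counting error is part of their spread, and replicates also stood apart, with 20 and 79 counts of Cst7 in CAA mock.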
